A study of Mus musculus with 12 samples.

Results

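The 10 genes described here encode enzymes of fatty acid synthesis and desaturation, namely Acly, Acaca, Fasn, Scd1, Scd2, Elovl5, Elovl6, Fads1, Fads2 and Acsl3. They were taken by name as a list of lipogenic enzymes from a table of 55487 genes, and all 10 were present and passed the filter on low counts. They were measured by RNA sequencing in B16F10 cells, a mouse melanoma line labelled wild type, in 12 libraries, 3 in each of 4 groups. In every group the melanoma cells were cultured for 24 h in medium that macrophages grown from mouse bone marrow (BMDM) had conditioned. The TAM group (B16F10-BMDM in the labels) received medium from macrophages that had been kept for 24 h in 75% B16F10 conditioned medium. The M1 group received medium from macrophages given 20 ng/ml interferon gamma (written INF-γ in the labels), and the M2 group medium from macrophages given 20 ng/ml IL-4. The M0 group, the reference, received medium from macrophages kept in control medium (DMEM). The macrophage treatment lasted 24 h in these groups too. The comparisons ask how the melanoma cells' transcripts differ with what the macrophages had met. The sources used here do not say whether the cytokines or the tumour medium were washed out before conditioning, how many mice gave the macrophages, or whether replicates were separate cultures, so p-values measure a spread that may be technical.

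Fatty acids are built in the cytosol from citrate that leaves the mitochondria. ATP-citrate lyase cleaves citrate to acetyl-CoA, acetyl-CoA carboxylase turns this into malonyl-CoA, and fatty acid synthase joins the units into palmitate, which elongases lengthen and desaturases give double bonds. Acyl-CoA synthetases then activate free fatty acids for membranes and stores, and most genes of the pathway are known targets of the sterol regulatory element-binding proteins (SREBPs), which proliferating tumour cells use to supply membrane lipid.

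The libraries held 15916756 to 20863973 counts. M0 replicate 1 stood apart. Pearson's r of log2 CPM (counts scaled to a library total of 1000000) with replicates 2 and 3 of M0 was 0.945 and 0.948, where every other pair of replicates gave 0.992 or 0.993. Weighted by counts, the exons of its genes averaged 4545 bp, against 5819 to 6091 bp in the other libraries. The common dispersion, the fitted spread between libraries, was 0.0324 with all 12 libraries and 0.00166 without that one, so values with and without it are given. All 10 melanocyte markers were present, at a summed level of 19992 to 27998 CPM per library. Of 23 macrophage markers, Ptprc and Adgre1 had 0 counts in all 12 libraries, and the summed level was 3.84 to 4.88 CPM in TAM, 23.1 to 24.7 in M1, 5.78 to 6.16 in M2 and 5.27 to 7.67 in M0. In bulk RNA, fewer cells that use a gene and less RNA per cell cannot be told apart.

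Cells in TAM medium held less RNA of every lipogenic gene of the list than cells in M0 medium. The 10 genes together took 0.200 to 0.206% of all counts in the TAM libraries, against 0.666 and 0.671% in M0 replicates 2 and 3 and 0.422% in M0 replicate 1. All 10 passed edgeR's quasi-likelihood test with Benjamini-Hochberg adjustment at 0.05 as lower in TAM, where 27.2% of the 14591 genes tested were called lower. Their median log2 change was −1.31, and that of all genes tested was −0.02. The decrease was steepest for the stearoyl-CoA desaturase Scd2 (−2.03) and smallest for the acetyl-CoA carboxylase Acaca (−0.48). All 10 were again lower without M0 replicate 1, with a median of −1.40, where 33.7% of 14968 genes were.

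**Figure D1:**
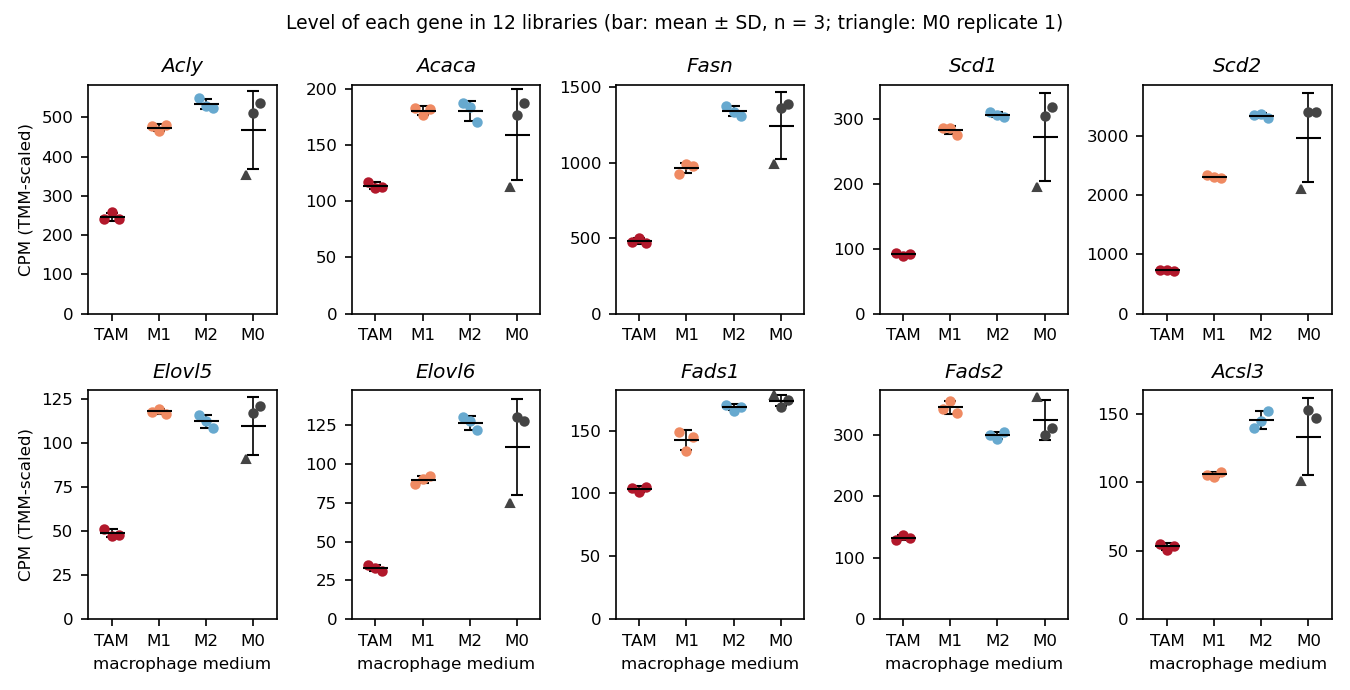
Level of each of the 10 genes in every library, in TMM-scaled CPM (CPM after edgeR's scaling for composition), by macrophage medium. Points are libraries, bars the mean ± SD of 3, and the triangle M0 replicate 1. The TAM libraries lie below the other 3 groups for all genes but Acaca, whose TAM values overlap the 113 CPM of M0 replicate 1. How many of all genes tested have TAM libraries below the other 3 groups was not counted.

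Promoters of the members that move together are shown for the 3 genes whose window held a searched motif. RefSeq windows of GRCm38.p6 were matched for 7 of the 10 genes, and for each the 250 bases before the start given by the window were taken. That of Acaca lies inside the annotated bounds of the gene, and that of Fads2 lies mostly inside them. Both strands were searched for CCAAT (the NF-Y box), CACGTG (the E-box) and TCACNCCAC (a sterol regulatory element type). Matches are in capitals, and ATTGG is CCAAT on the other strand.
Fasn, chr11:120824548-120824797, minus strand: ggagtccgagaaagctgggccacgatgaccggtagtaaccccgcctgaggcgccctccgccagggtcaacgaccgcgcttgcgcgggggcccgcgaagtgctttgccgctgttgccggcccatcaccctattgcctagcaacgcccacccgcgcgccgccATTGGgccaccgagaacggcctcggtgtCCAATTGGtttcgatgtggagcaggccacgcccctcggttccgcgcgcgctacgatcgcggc
Elovl5, chr9:77917115-77917364, plus strand: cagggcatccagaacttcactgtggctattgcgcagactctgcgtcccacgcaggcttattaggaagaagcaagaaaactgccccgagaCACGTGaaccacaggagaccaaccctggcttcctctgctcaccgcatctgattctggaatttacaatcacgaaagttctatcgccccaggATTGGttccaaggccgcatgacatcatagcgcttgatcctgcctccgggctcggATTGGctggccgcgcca
Acsl3, chr1:78657575-78657824, plus strand: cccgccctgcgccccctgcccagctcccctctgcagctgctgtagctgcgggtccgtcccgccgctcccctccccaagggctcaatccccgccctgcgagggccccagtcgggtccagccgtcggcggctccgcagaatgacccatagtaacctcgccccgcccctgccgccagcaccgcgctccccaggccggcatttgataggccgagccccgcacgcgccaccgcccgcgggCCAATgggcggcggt
CCAAT stood in the windows of Fasn, Elovl5 and Acsl3, 3 of 7, where 33.8% of all 32851 windows of that length held it. In Fasn it occurred 3 times, between 90 and 55 bases before the start, and 2 of the matches lie on opposite strands and share bases. Elovl5 held it 71 to 67 and 17 to 13 bases before the start, and Acsl3 15 to 11. No match of one motif overlapped a match of another. CACGTG stood only in Elovl5 among the 7 windows, 161 to 156 bases before the start, and in 6.02% of all windows. TCACNCCAC stood in 0 of the 7 and in 1.05% of all windows. The windows of Acly, Acaca, Elovl6 and Fads2 held none of the 3 motifs. The Acaca window, chr11:84195188-84195437, is internal to a gene annotated from 84129672 to 84401651 on the plus strand. The bases before the annotated start of Acaca were therefore not searched. The Fads2 window, chr19:10101504-10101753, lies mostly inside a gene annotated from 10062765 to 10101746 on the minus strand. Most bases before its annotated start were thus not searched either. The Elovl6 window, chr3:129532136-129532385, runs past the annotated start of that gene at 129532355.

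The enzymes that make palmitate come first. Acly (chr11:100476353-100528000, minus strand), the ATP-citrate lyase, stood at 240, 258 and 242 CPM in TAM, against 354, 512 and 538 in M0. The groups did not overlap, and the lowest M0 value was replicate 1. Its log2 change was −0.92 ± 0.14 (SE, adjusted p = 0.000229), which left 52.7% of the M0 level, or 46.8% without M0 replicate 1.

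Fasn (chr11:120805846-120824547, minus strand), the multifunctional synthase that assembles palmitate, stood at 471, 503 and 466 CPM in TAM, against 989, 1360 and 1385 in M0. Every TAM library held less than any M0 library. The change was −1.37 ± 0.12 (adjusted p = 5.92e-06), to 38.6% of M0, or 34.9% without M0 replicate 1. The gene overlaps no other annotated gene, and none of its 50-base exon windows occurs in another gene.

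Acaca (chr11:84129672-84401651, plus strand), the cytosolic carboxylase that makes malonyl-CoA, stood at 117, 112 and 112 CPM in TAM, against 113, 177 and 188 in M0. Here the groups overlapped, because M0 replicate 1 lay within the TAM range. The change was −0.48 ± 0.16 (adjusted p = 0.0248), and −0.69 ± 0.05 without M0 replicate 1 (adjusted p = 4.86e-19). It was the member whose call depended on the libraries used: leaving out M0 replicate 2 or 3 gave adjusted p = 0.0691 and 0.0839, leaving out TAM replicate 1, 2 or 3 gave 0.0607, 0.0749 and 0.0737, and fitting TAM and M0 alone gave 0.127. Of its 50-base exon windows, 30.4% also occur in other genes, nearly all in the pseudogene Gm5182, which had 296 to 328 counts per library in TAM and 111 to 500 in M0, so its counts are uncertain.

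The desaturases Scd1 and Scd2, which place the first double bond in saturated chains, and Elovl6 had the largest decreases. Scd2 (chr19:44293674-44306864, plus strand) stood at 733, 730 and 719 CPM in TAM, against 2111, 3410 and 3401 in M0. The TAM libraries lay close together and far below the lowest M0 library, replicate 1. The change was −2.03 ± 0.16 (adjusted p = 2.13e-06), to 24.5% of M0, or −2.23 ± 0.03 without M0 replicate 1.

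Scd1 (chr19:44394455-44407879, minus strand), its neighbour on the chromosome with the same reaction, stood at 93.7, 89.5 and 91.5 CPM in TAM, against 195, 306 and 319 in M0. The groups did not overlap. The change was −1.58 ± 0.16 (adjusted p = 1.27e-05), to 33.5% of M0. Of their 50-base exon windows, 4.56% of those of Scd1 and 3.97% of those of Scd2 occur in other genes. The 2 genes share 145 windows with each other. The other 2 genes of the cluster were nearly silent, with 5 to 10 counts of Scd3 and 3 to 5 of Scd4 per TAM library and 1 to 6 and 13 to 18 per M0 library.

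The elongases divide by substrate. Elovl6 (chr3:129532355-129638495, plus strand), which lengthens palmitate to stearate, stood at 34.6, 33.2 and 30.8 CPM in TAM, against 75.1, 130 and 128 in M0. The highest TAM library held less than the lowest M0 library, replicate 1. The change was −1.76 ± 0.18 (adjusted p = 1.44e-05), to 29.6% of M0, or 25.4% without M0 replicate 1.

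Elovl5 (chr9:77917364-77984519, plus strand), which lengthens polyunsaturated chains, stood at 51.3, 47.3 and 47.4 CPM in TAM, against 90.8, 117 and 121 in M0. Again the groups did not overlap. The change was −1.17 ± 0.11 (adjusted p = 7.97e-06), to 44.4% of M0.

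The polyunsaturated fatty acid desaturases Fads1 and Fads2 are neighbours on chromosome 19 and work in turn on dietary essential fatty acids. Fads2 (chr19:10062765-10101746, minus strand), which takes the first of these steps, stood at 129, 137 and 132 CPM in TAM, against 361, 299 and 311 in M0. Fads1 (chr19:10182888-10196877, plus strand), which acts after it, stood at 105, 101 and 105 CPM in TAM, against 178, 169 and 174 in M0. Neither gene's groups overlapped, and for both M0 replicate 1 was the highest M0 library, where for the other 8 members it was the lowest. The changes were −1.29 ± 0.09 for Fads2 (adjusted p = 1.07e-06) and −0.75 ± 0.08 for Fads1 (adjusted p = 1.95e-05).

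Acsl3 (chr1:78657825-78707743, plus strand), an acyl-CoA synthetase of the endoplasmic reticulum and lipid droplets, stood at 55.1, 50.4 and 53.5 CPM in TAM, against 101, 153 and 146 in M0. The groups did not overlap. The change was −1.33 ± 0.14 (adjusted p = 1.89e-05), to 39.8% of M0. The gene Utp14b overlaps it on the same strand and shares 3.59% of its windows, and the sources used here do not say how such reads were counted. Utp14b had 603 to 677 counts per library in TAM and 353 to 1164 in M0, so the counts of Acsl3 carry some uncertainty.

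The same 10 genes were lower in TAM than in the other media. Against M1, where 23.3% of all genes were called lower, all 10 were lower with a median log2 change of −1.14, from −1.67 in Scd2 to −0.46 in Fads1. Against M2, where 22.6% were, all 10 were lower with a median of −1.33, from −2.20 in Scd2 to −0.67 in Acaca. No TAM library overlapped an M1 or M2 library in any of the 10. How many of all genes tested lacked such overlap was not counted. Acaca stood at 117, 112 and 112 CPM in TAM, against 183, 177 and 183 in M1 and 188, 184 and 171 in M2. Both counts of lower genes were 10 in all alternatives tried. The 3 comparisons share the TAM libraries.

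**Figure D2:**
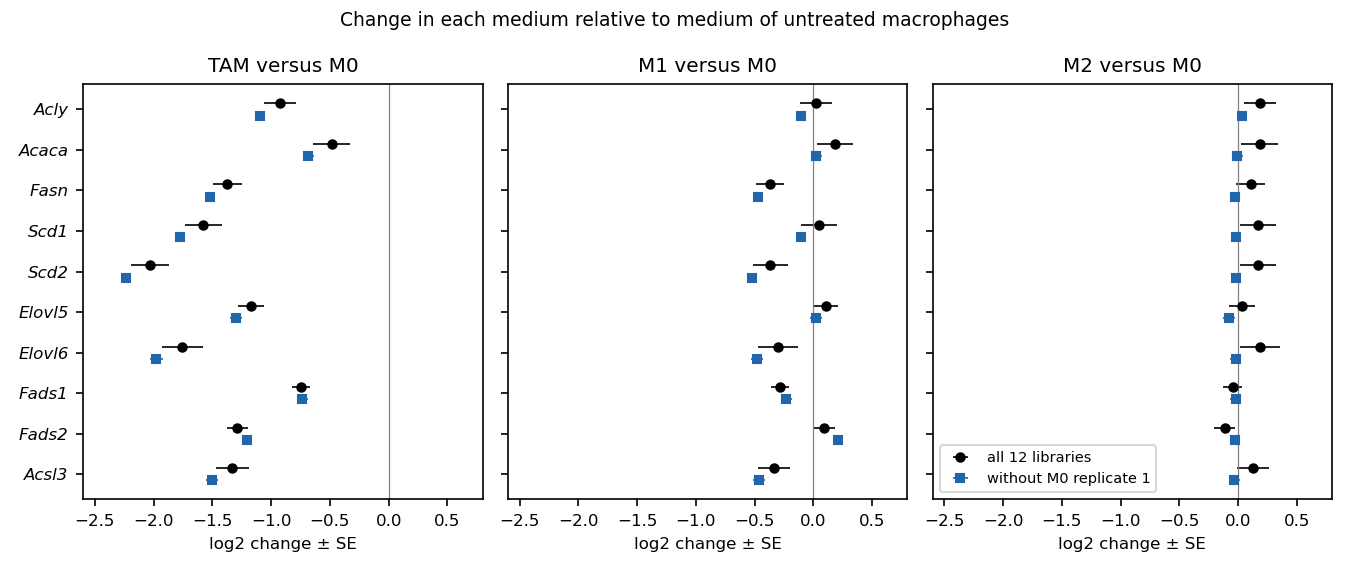
Log2 change of each gene with its standard error in TAM, M1 and M2 medium relative to M0 medium, in edgeR fits of all 12 libraries (circles) and without M0 replicate 1 (squares). The TAM changes run from −2.03 to −0.48 with all 12 libraries, M1 changes divide into lower genes and genes near 0, and M2 changes without M0 replicate 1 lie between −0.08 and 0.03.

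Fewer of these genes were called lower in M1 medium, and their changes were smaller than in TAM. With all 12 libraries 2 of the 10 were called lower in M1 than in M0, where 13.5% of all genes were, and 0 were called higher, where 12.2% were. They were Fasn (−0.37 ± 0.12, adjusted p = 0.0456) and Fads1 (−0.29 ± 0.08, adjusted p = 0.0227). The count without M0 replicate 1 was 7 lower, where 22.9% of all genes were, and 1 higher, where 24.3% were. Fasn lost its call when any of the other 11 libraries was left out, and Fads1 when any M1 or TAM library was, so the count of 2 rests on the set of libraries.

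Fasn stood at 925, 990 and 979 CPM in M1, against 989, 1360 and 1385 in M0. The M1 libraries overlapped M0 replicate 1 and lay below the other M0 libraries. Without that replicate the change was −0.47 ± 0.04 (adjusted p = 4.29e-15).

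Scd2 stood at 2334, 2305 and 2286 CPM in M1, against 2111, 3410 and 3401 in M0. M0 replicate 1 was below all M1 libraries and the other M0 libraries were above them. The change was −0.37 ± 0.15 with all libraries (adjusted p = 0.101) and −0.52 ± 0.03 without M0 replicate 1 (adjusted p = 8.47e-19).

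Elovl6 and Acsl3 had the same form. Elovl6 stood at 87.4, 90.0 and 92.4 CPM in M1, against 75.1, 130 and 128 in M0, and changed by −0.48 ± 0.05 without M0 replicate 1 (adjusted p = 7.1e-12). Acsl3 stood at 105, 104 and 108 CPM in M1, against 101, 153 and 146 in M0, and changed by −0.46 ± 0.05 without it (adjusted p = 8e-12). With all 12 libraries neither passed, at adjusted p = 0.214 and 0.0954.

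The pair Fads1 and Fads2 moved apart in M1. Fads1 stood at 149, 134 and 145 CPM in M1, against 178, 169 and 174 in M0, without overlap. Its partner Fads2 stood at 342, 356 and 336 CPM in M1, against 361, 299 and 311 in M0. It was the member called higher without M0 replicate 1, by 0.21 ± 0.04 (adjusted p = 2.08e-05), and stood at adjusted p = 0.488 with all 12 libraries. Acly and Scd1, near 0 in the fit of all libraries (0.02 and 0.05), were called lower without M0 replicate 1 by −0.11 and −0.10, or 92.8 and 93.0% of the M0 level. Acaca and Elovl5 passed in neither fit, at 0.03 (nominal 95% interval −0.06 to 0.11) and 0.02 (−0.07 to 0.12) without that replicate.

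The M1 libraries differed from the M2 libraries along the same lines, in a comparison that does not use M0 values directly. With all 12 libraries 3 of 10 genes were lower in M1 than in M2, where 7.5% of all genes were, namely Scd2 (−0.53), Fasn (−0.47) and Acsl3 (−0.46), and 0 were called higher, where 9.72% were. Without M0 replicate 1, which here enters only the spread, the scaling and the filter, 7 were lower and 2 higher, where 23.5 and 24.8% of all genes were. The higher ones were Fads2 (0.24) and Elovl5 (0.10). Leaving out any M1 or M2 library gave 0 calls with M0 replicate 1 in the fit, where 11.3 to 12.1% of all genes were called. Leaving out any TAM library gave 1, where 14.6% were.

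No member differed detectably between M2 and M0 medium. In M2 versus M0, 0 of the 10 genes passed edgeR's test, 0 had an unadjusted p under 0.05, and DESeq2 and limma-voom called 0 of them. Over all genes edgeR called 0% of 14591, with 980 at an unadjusted p under 0.05. The nominal 95% intervals of the log2 changes ran from −0.29 to 0.52 over the 10 genes with all libraries and from −0.17 to 0.11 without M0 replicate 1, where 0.341% of all genes were called. Scd2 stood at 3348, 3381 and 3303 CPM in M2, against 3410 and 3401 in M0 replicates 2 and 3. Fasn stood at 1377, 1333 and 1311 CPM in M2, against 1360 and 1385 in those replicates.

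**Figure D3:**
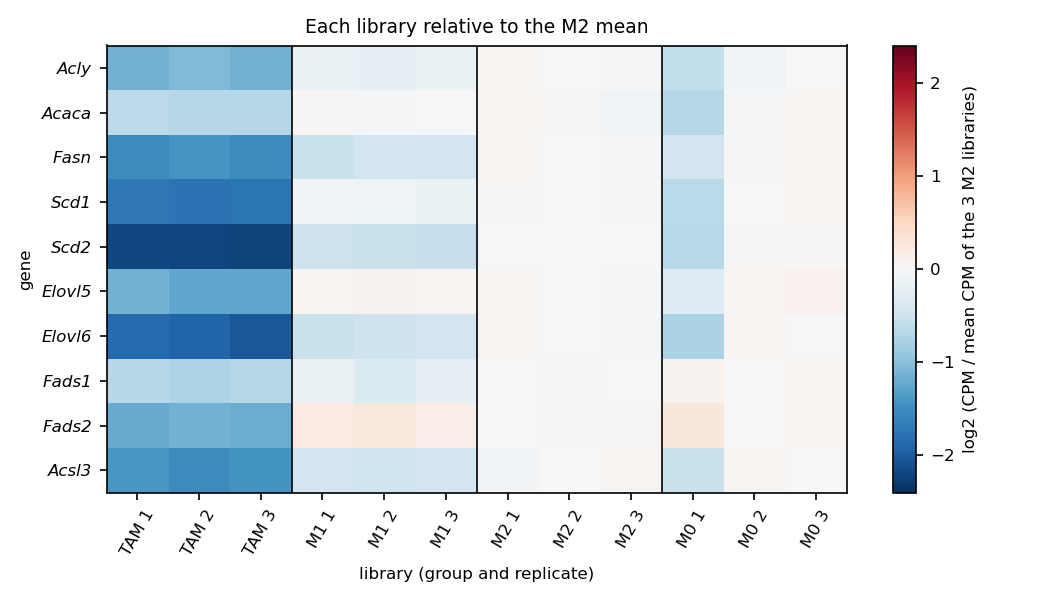
Log2 ratio of each library to the mean of the 3 M2 libraries, by gene (rows) and library (columns), for the 10 genes. The TAM columns are lowest for Scd2, Elovl6 and Scd1, the M1 columns are low for Fasn, Scd2, Elovl6, Acsl3 and Fads1, and M0 replicate 1 differs from the other M0 columns.

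The genes did not change in proportion. Scd2 had 7.83 to 8.16 counts for each count of Scd1 in the TAM libraries and 8.06 to 8.28 in M1, against 10.7 to 11.0 in M2 and 10.7 to 11.2 in M0. These ratios are taken within a library, and M0 replicate 1, at 10.8, lay with the other M0 libraries. Fads2 had 1.24 to 1.35 counts for each count of Fads1 in TAM and 2.30 to 2.65 in M1, against 1.76 to 1.80 in M2 and 1.77 to 2.03 in M0. TAM and M1 thus lay on opposite sides of M2 and M0 for the Fads genes and on the same side for the Scd genes. Elovl5 had 1.43 to 1.54 counts for each count of Elovl6 in TAM and 1.26 to 1.35 in M1, against 0.883 to 0.892 in M2 and 0.900 to 1.21 in M0, of which the highest was replicate 1. No test was made of the ratios.

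**Figure D4:**
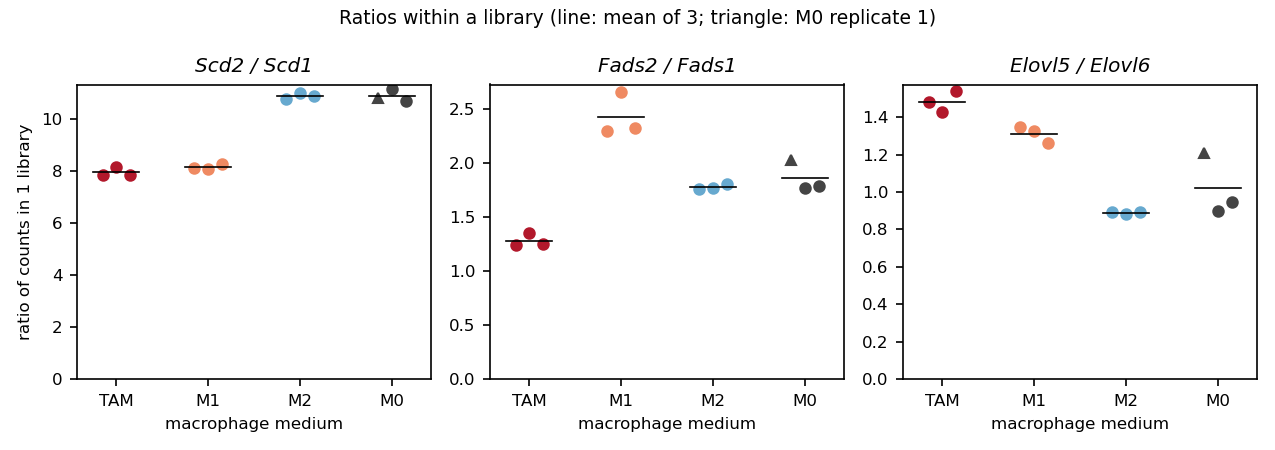
Ratio of counts within each library for 3 pairs of related enzymes, by macrophage medium, with a line at the mean of 3 and a triangle for M0 replicate 1. Scd2 per Scd1 is 7.83 to 8.28 in TAM and M1 and 10.7 to 11.2 in M2 and M0, while Fads2 per Fads1 is lowest in TAM and highest in M1.

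Per kilobase of merged exon, which lets levels of different genes be set side by side, the order of the members shifted. In TAM it was Scd2 at 133 ± 1.42 CPM per kb, Acly at 46.7 ± 1.84, Fasn at 43.8 ± 1.80, Fads2 at 40.2 ± 1.09, Fads1 at 21.5 ± 0.481, Scd1 at 18.7 ± 0.431, Elovl5 at 13.8 ± 0.635, Acsl3 at 12.2 ± 0.548, Acaca at 6.67 ± 0.179 and Elovl6 at 5.11 ± 0.300 (SD, n = 3). Acly and Fasn differed by less than the sum of their SDs. In M2, whose replicates lie closer than those of M0, it was Scd2 at 612 ± 7.17 CPM per kb, Fasn at 122 ± 3.10, Acly at 101 ± 2.45, Fads2 at 90.8 ± 1.79, Scd1 at 62.8 ± 0.829, Fads1 at 35.0 ± 0.481, Acsl3 at 33.4 ± 1.48, Elovl5 at 31.9 ± 1.06, Elovl6 at 19.7 ± 0.664 and Acaca at 10.6 ± 0.527. There Fads1 and Acsl3, and Acsl3 and Elovl5, differed by less than the sum of their SDs. Scd1 stood above Fads1 in M2 and below it in TAM, and Fasn stood above Acly in M2. Lengths take in all annotated exons, which lowers the value of genes with many alternative exons such as Acaca.

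Other genes of the fatty acid pathway moved in both directions in TAM. Of 33 other genes of synthesis, elongation and activation, 31 were tested in TAM versus M0, of which 14 were lower and 9 higher, where 27.2 and 23.3% of all genes were, with a median log2 change of −0.05. Leaving out M0 replicate 1 gave 14 lower and 15 higher, where 33.7 and 33% of all genes were. Idh1, the cytosolic isocitrate dehydrogenase that makes NADPH, was lower, at 39.1, 37.1 and 40.5 CPM in TAM, against 111, 125 and 121 in M0 (−1.61 ± 0.09, adjusted p = 1.61e-07). Acss2, which makes acetyl-CoA from acetate, stood at 9.61, 9.52 and 8.94 CPM in TAM, against 21.2, 18.7 and 20.4 in M0 (−1.10 ± 0.10, adjusted p = 4.33e-06). Hacd3, a dehydratase of the elongation cycle, fell by 0.89 on the log2 scale (adjusted p = 7.17e-06). Elovl3, an elongase of saturated and monounsaturated chains, went the other way, with 231 counts over the TAM libraries, against 2 over the M0 libraries (adjusted p = 1.17e-05).

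In M1 versus M0, 5 of these 31 genes were lower and 6 higher, where 13.5 and 12.2% of all genes were. The counts without M0 replicate 1 were 7 lower and 12 higher, where 22.9 and 24.3% were. Acacb, the carboxylase isoform of the mitochondrial surface, stood at 61.3, 54.6 and 58.3 CPM in M1, against 17.5, 17.1 and 19.2 in M0. No library overlapped, and the change was 1.69 ± 0.09 (adjusted p = 1.73e-07), while in TAM it was −0.53 ± 0.10 (adjusted p = 0.000802). Acsl6, an acyl-CoA synthetase, was low throughout, with 132 counts over the M1 libraries, against 28 over the M0 libraries (adjusted p = 7.63e-05). Acss2 was higher in M1, by 0.43 ± 0.09 (adjusted p = 0.00651), and Idh1 stood at −0.25 ± 0.09 (adjusted p = 0.0499), a call lost when any library but M0 replicate 1 was left out. Macrophage markers differed most in M1, where Mpeg1 had 286 to 308 counts per library and Nos2 had 23 to 29, against 0 to 1 and 0 in M0, with Ptprc and Adgre1 at 0 in both groups.

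**Figure D5:**
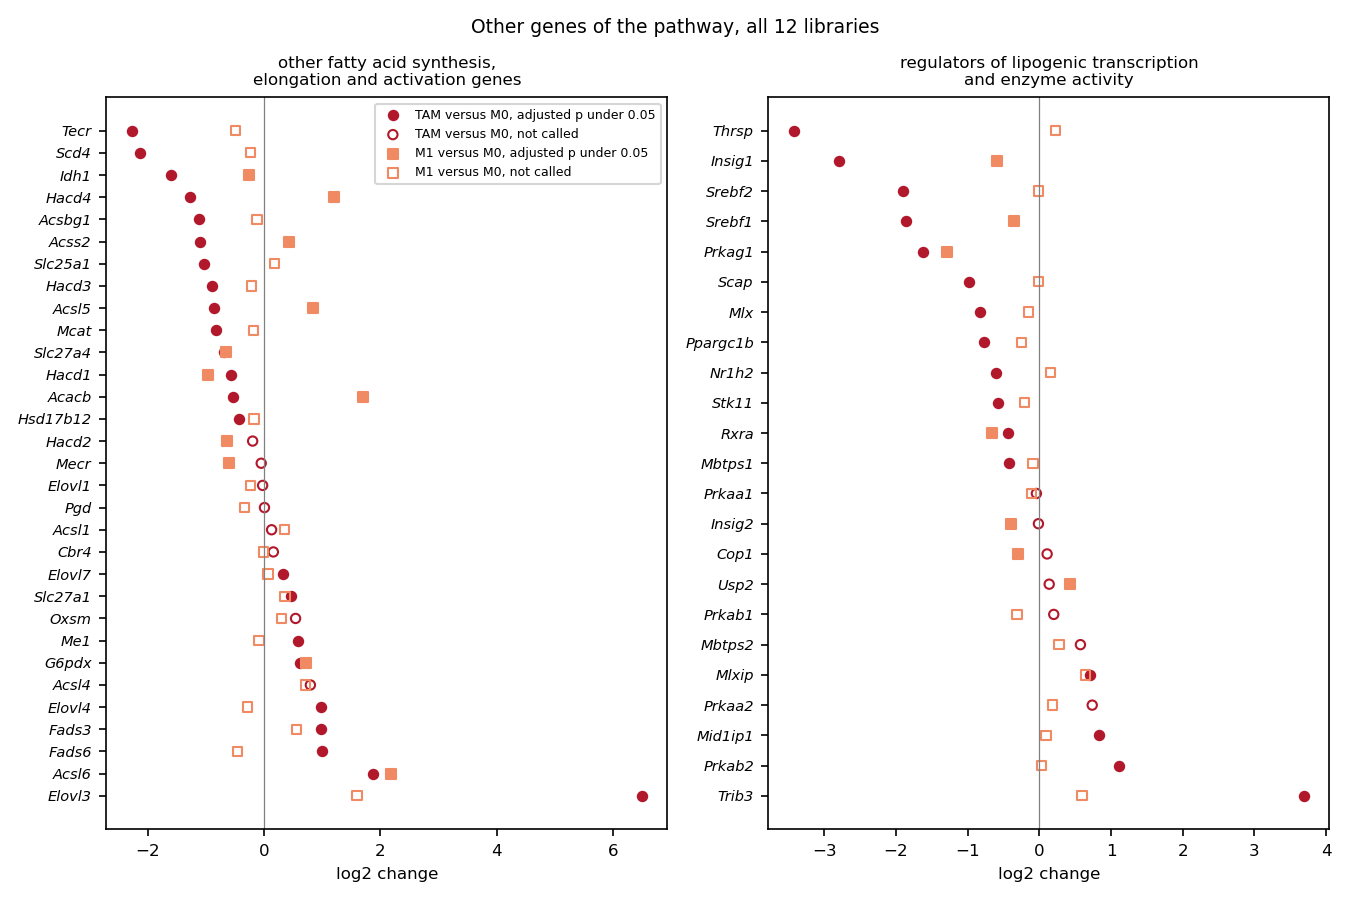
Log2 change relative to M0 medium in TAM (circles) and M1 (squares), with all 12 libraries, for the tested genes of 2 lists, filled where the adjusted p was under 0.05. Other fatty acid genes spread to both sides in TAM (14 lower, 9 higher), and the fitted value of Elovl3 rests on 2 counts in M0, while 12 regulators were lower and 4 higher.

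Among 25 regulators of lipogenic transcription and enzyme activity, 23 were tested, of which 12 were lower and 4 higher in TAM than in M0, where 27.2 and 23.3% of all genes were, with a median log2 change of −0.42. Leaving out M0 replicate 1 gave 13 lower and 8 higher of 24, where 33.7 and 33% were. Srebf2, which encodes the SREBP best known for sterol genes, stood at 88.7, 94.0 and 87.6 CPM in TAM, against 313, 343 and 349 in M0 (−1.90 ± 0.09, adjusted p = 5.29e-08). Srebf1, which encodes the SREBP best known for fatty acid genes, stood at 53.4, 55.3 and 55.9 CPM in TAM, against 227, 185 and 186 in M0 (−1.86 ± 0.10, adjusted p = 1.92e-07). Both genes' TAM libraries lay far below every M0 library.

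Insig1, which holds the SREBPs in the endoplasmic reticulum and is itself a target of theirs, stood at 23.7, 23.9 and 24.9 CPM in TAM, against 126, 188 and 189 in M0 (−2.80 ± 0.16, adjusted p = 2.02e-07). Scap, the escort that carries SREBPs to the Golgi, fell by 0.99 on the log2 scale in TAM (adjusted p = 1.19e-05). Mlxipl and Nr1h3 RNA was scarce. Mlxipl, which encodes the carbohydrate-responsive factor ChREBP, had 0 counts in all 12 libraries, and Nr1h3, which encodes the oxysterol receptor LXR alpha, had 38 counts over the TAM libraries, 7 in M1, 13 in M2 and 12 in M0, and did not pass the filter with all 12 libraries. Without M0 replicate 1 Nr1h3 was tested and was higher in TAM than in M0 (adjusted p = 0.016).

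In M1 versus M0, 6 of the 23 regulators were lower and 1 higher, where 13.5 and 12.2% of all genes were. The counts without M0 replicate 1 were 9 lower and 6 higher of 24, where 22.9 and 24.3% were. Srebf2 stood at 319, 337 and 343 CPM in M1, against 313, 343 and 349 in M0, and did not pass (−0.01 ± 0.08, adjusted p = 0.95). Srebf1 stood at 145, 160 and 164 CPM in M1, against 227, 185 and 186 in M0, without overlap (−0.35 ± 0.10, adjusted p = 0.0268, or −0.21 ± 0.05 without M0 replicate 1). Its call was lost when any M1 or TAM library was left out. Insig1 stood at 100, 122 and 111 CPM in M1, against 126, 188 and 189 in M0 (−0.60 ± 0.14, adjusted p = 0.0122), and without M1 replicate 1 its adjusted p was 0.0641. The leading regulators by p in M1 were Rxra, the shared partner of nuclear receptors (−0.66 ± 0.08, adjusted p = 8.97e-05), and Insig2, a second retention protein (−0.39 ± 0.09, adjusted p = 0.011), whose call was lost without M1 replicate 2 or 3. Fitted with M1 and M0 alone, Acss2, Idh1, Srebf1, Insig1 and Insig2 missed the threshold.

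Over libraries, the members moved closely together. Pearson's r of log2 CPM between pairs of members ran from 0.663 to 0.997 over the 12 libraries, with a median of 0.941 over 45 pairs, and from 0.880 to 0.999 without M0 replicate 1. The points share their libraries, and 4 groups set most of the spread, so this is a description. The 5 other genes whose log2 CPM most resembled the mean of the members' standardised values were Mical3 (r = 0.998), Coro1c (0.997), Cep250 (0.996), Cand2 (0.996) and Dnmt1 (0.996). Mical3 stood at 111, 115 and 113 CPM in TAM, against 206, 279 and 281 in M0. Without M0 replicate 1 these 5 ranked 12, 32, 18, 21 and 41, and the first 5 were Scrn1, Tk1, Mcm6, Ncaph2 and Dag1. Of the 10 melanocyte markers, 7 were lower in TAM than in M0, where 27.2% of all genes were, and 7 were lower in M1, where 13.5% were. The counts without M0 replicate 1 were 8 lower and 1 higher in TAM, where 33.7 and 33% of all genes were. In M1 they were 9 lower, where 22.9% were. The part of these markers in the results above was not tested.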

How the data were processed

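B16F10 RNA was sequenced in 12 libraries. Raw counts per Ensembl gene, in 1 table, are what the authors deposited, and per the submitters' processing notes reads were aligned with HISAT2 2.0 to mm10. The counter, its annotation and its use of strand are not stated in the sources used here. From these counts, 55141 of 55487 identifiers were matched to symbols with GENCODE M21 (GRCm38). Genes were filtered with filterByExpr, scaled by TMM and fitted in edgeR 4.0.16 (R 4.3.3) with a mean per group and a robust quasi-likelihood test, with Benjamini-Hochberg adjustment over all 14591 genes tested. The scripts were tested on simulated data. Library totals ranged from 15916756 to 20863973, and their number, 3 per group, limits the precision. All other gene names follow a rule: the tested genes with the 4 smallest adjusted p in TAM versus M0 and the 2 smallest in M1 versus M0 of each of 4 pathway lists, the 5 genes most like the members, Srebf1, Srebf2, Nr1h3, Mlxipl and markers. Neighbours sharing sequence were named in addition, as were genes first in rank without M0 replicate 1. Members and lists were chosen with earlier results of these data known. Alternatives were RLE and upper-quartile factors, other filters, DESeq2 1.42.0, limma-voom 3.58.1, fits of 2 groups, a replicate block and each library left out. Intervals are nominally 95% and cover the spread of these libraries. They were built from the SE by a normal approximation, so they are narrower than the quasi-likelihood test implies. Adipocyte markers (8 genes) summed to 0.257 to 2.35 CPM and fibroblast and endothelial markers (8 genes) to 2.59 to 10.7 CPM per library.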

Additional observations from a re-analysis of the deposited data

How the results depend on the processing

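The 10 lower genes in TAM were 9 or 10 against M0 and 10 against M1 and M2 under every alternative, where at most 37.7% of all genes were called lower. In M2 versus M0, 0 were called under every alternative, where at most 0.341% of all genes were. In M1 versus M0 the count of 2 was 1 with RLE size factors, 4 with upper-quartile factors, 0 without a filter, 0 when only the 2 groups were fitted, and 0 to 8 leaving out 1 library, the 8 without M0 replicate 1. The share of all genes called moved too, from 25.7% to 25, 26.7, 10.6 and 9.3% in the first 4 of these. Leaving out 1 library gave 15.3 to 47.1%, the highest without M0 replicate 1. With that library left out, chosen after seeing the data, RLE factors, upper-quartile factors and the block each gave 8, where 47.7, 49.5 and 45.1% of all genes were called. In M1 versus M2 the count of 3 was 0 without a filter, 5 with DESeq2, 7 with only the 2 groups and 0 to 9 leaving out 1 library, 9 without M0 replicate 1. Of all genes, 17.2% were called in the main fit, against 7.04, 20.9 and 50.4% in the first 3 of these. Leaving out 1 library gave 11.3 to 48.3%, the highest without M0 replicate 1. Replicate numbers did not pair the samples (correlations of deviations between same-numbered libraries −0.129 to 0.163). With the replicate block the counts were 1 in M1 versus M0 and 1 in M1 versus M2, where 21.6 and 14.9% of all genes were called. No other count moved by over 1.5 times with the block. Log2 values near 0 changed sign. In M1 versus M0, Acly (0.02) gave −0.0283 with upper-quartile factors and, without M0 replicate 1, −0.11 with the block, −0.12 with RLE and −0.17 with upper-quartile factors (leave-one-out range −0.11 to 0.13). Scd1 (0.05) gave −0.12, −0.12 and −0.17 in the same 3 fits (range −0.10 to 0.18), and Acaca and Elovl5 gave −0.0391 and −0.0421 with upper-quartile factors without M0 replicate 1. Srebf2 (−0.01) gave 0.0140 with RLE, 0.0399 without a filter, 0.0139 with DESeq2 and 0.0333 with 2 groups (range −0.0266 to 0.0335). Acaca in M1 versus M2 (0.0013) gave −0.0280 with upper-quartile factors (range −0.0336 to 0.0332). In M2 versus M0 the leave-one-out ranges, each with its lowest value without M0 replicate 1, were −0.0068 to 0.32 for Acaca, −0.0277 to 0.19 for Fasn, −0.0166 to 0.29 for Scd1, −0.0196 to 0.28 for Scd2, −0.0772 to 0.11 for Elovl5, −0.0208 to 0.32 for Elovl6 and −0.0337 to 0.23 for Acsl3. The cause of these shifts was not tested.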

Other observations

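Genes that use fatty acids were counted beside those that make them. Of 31 genes of glycerolipid and phospholipid assembly, 30 were tested in TAM versus M0, of which 14 were lower and 4 higher, with a median log2 change of −0.29, where 27.2 and 23.3% of all genes were. Leaving out M0 replicate 1 gave 19 lower and 8 higher of 31, where 33.7 and 33% were. Mgll, the lipase that releases glycerol from monoacylglycerol, stood at 2.19, 3.34 and 2.66 CPM in TAM and 5.05, 4.82 and 5.21 in M1, against 33.2, 30.2 and 25.2 in M0. The log2 changes were −3.43 ± 0.16 in TAM (adjusted p = 7.86e-08) and −2.55 ± 0.15 in M1 (adjusted p = 4.41e-07). In M2 Mgll stood at 18.1, 17.5 and 20.2 CPM, a change of −0.66 ± 0.14 that edgeR did not call (adjusted p = 0.535). Without M0 replicate 1 it was called lower in M2 (−0.56 ± 0.11, adjusted p = 0.00365). The lysophospholipid acyltransferases Lpcat1, Mboat1 and Mboat2 fell by 1.87, 2.06 and 1.35 in TAM (adjusted p = 1.69e-07, 6.14e-07 and 2.27e-06). Agpat5, an acyltransferase of the same family of reactions, fell by 0.60 in M1 (adjusted p = 0.000798).

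Of 30 genes of fatty acid oxidation, 28 were tested in TAM versus M0, of which 12 were lower and 3 higher, where 27.2 and 23.3% of all genes were, with a median log2 change of −0.32. Leaving out M0 replicate 1 gave 13 lower and 7 higher, where 33.7 and 33% were. Hadh, a dehydrogenase of mitochondrial beta-oxidation, stood at 20.2, 20.3 and 17.2 CPM in TAM, against 98.8, 76.0 and 85.0 in M0 (−2.17 ± 0.11, adjusted p = 1.29e-07). Acaa2, the thiolase that ends a cycle of beta-oxidation, stood at 8.57, 8.92 and 9.24 CPM in TAM, against 55.3, 29.2 and 27.9 in M0, where replicate 1 was the high library (−2.07 ± 0.23, or −1.68 ± 0.10 without it). Acadm, the medium-chain dehydrogenase, and the nuclear receptor gene Ppard fell by 1.02 and 0.89 in TAM (adjusted p = 5.54e-06 and 3.99e-06). In M1, 6 of the 28 were lower and 0 higher than in M0 by edgeR's quasi-likelihood test, where 13.5 and 12.2% of all genes were. Leaving out M0 replicate 1 gave 9 lower and 7 higher, where 22.9 and 24.3% were. Acadm stood at −0.53 ± 0.09 in M1 (adjusted p = 0.00159) and Acaa2 at −1.02 ± 0.22 (adjusted p = 0.00681), the second being −0.59 ± 0.09 without M0 replicate 1. Fitted with M1 and M0 alone, Acadm, Acaa2 and Agpat5 missed the threshold.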
